A study of Mus musculus with 212 samples.

Results

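The cells compared here are 5 single mouse cells named CPC, read here as cardiac progenitor cells, and 5 named ES, read here as embryonic stem cells. They were chosen by the cell names in the reference table, with its negative and positive control columns set aside, and make up 10 of the 30 reference cells and 10 of the 200 cells in the 7 tables of the series. Of those 200 columns, 8 repeat another table's cell in every value, and 2 reference CM cells are among the repeated. The study measured single cells from mouse ES cell cultures, embryos and hearts by quantitative PCR. Sorted cells were lysed and reverse transcribed in 1 step, their cDNA was pre-amplified with TaqMan assays, and each assay was read on a microfluidic chip, per the labels' protocols. The labels give embryoid bodies and mouse embryo as the source of the reference cells without saying which type came from which, and they name no strain, stage, animal, culture or sorting marker. The abbreviation CPC and those of the other reference types, CM, SMC, FB and EDC, are not spelled out either. No genotype, transgene or treatment is recorded for either group. Each type therefore counts as 1 sample, no test was possible, and an SD below is the spread between the 5 cells of a type.

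Embryonic stem cells are held in the pluripotent state by a small set of transcription factors that includes Pou5f1 (Oct4) and Sox2. On the way to the heart, cells pass through a mesoderm stage marked by Mesp1 and by the receptors Flk-1 (Kdr) and Pdgfra, and cardiac progenitors then switch on factors such as Isl1, Gata4, Hand1, Hand2, Tbx5, Nkx2-5 and Mef2c. Genes of the contractile apparatus, among them the troponins and myosin heavy chains, follow as progenitors become beating muscle.

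Levels are given as 25 minus the quantification cycle (Ct), in cycles, so that 0 means no signal and 1 cycle stands for a doubling of template if the PCR is fully efficient. The efficiency is not given in the sources used here, so levels are compared between cells for the same assay and not between assays. The 42 assays cover 33 genes, of which 9 have 2 assays each, written as Gata4-1 and Gata4-2. The negative control gave signal on 0 assays and the positive control on 42. No CPC or ES cell repeated the values of another cell in the series.

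The CPC cells carried transcripts of early mesoderm and of cardiac transcription factors that most ES cells lacked, and higher levels of 3 smooth muscle and calponin transcripts. Their level of the pluripotency factor Pou5f1 was lower, while Sox2 had a lower mean but overlapped between the types. Of the 42 assays, 15 (35.7%) had a mean at least 1 cycle higher in CPC cells and 4 (9.52%) a mean at least 1 cycle lower, with 23 within 1 cycle. The 15 were Hand1, Sm22A, Pdgfra, Vim, Hand2, Gata4-2, Cnn1, Cnn2, Flk-1, Isl1-2, Gata4-1, Kit-2, Actb, Tbx5 and Mesp1, and the 4 were Pou5f1, Pecam1, Kit-1 and Sox2. For 7 assays (16.7%), namely Actb, Pdgfra, Hand1, Hand2, Sm22A, Cnn2 and Vim, every CPC cell was above every ES cell. For 1 assay (2.38%), Pou5f1, every CPC cell was below every ES cell. The median difference was 0 over all assays and 1.80 cycles over the 24 assays with signal in at least 1 of the 10 cells.

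**Figure D1:**
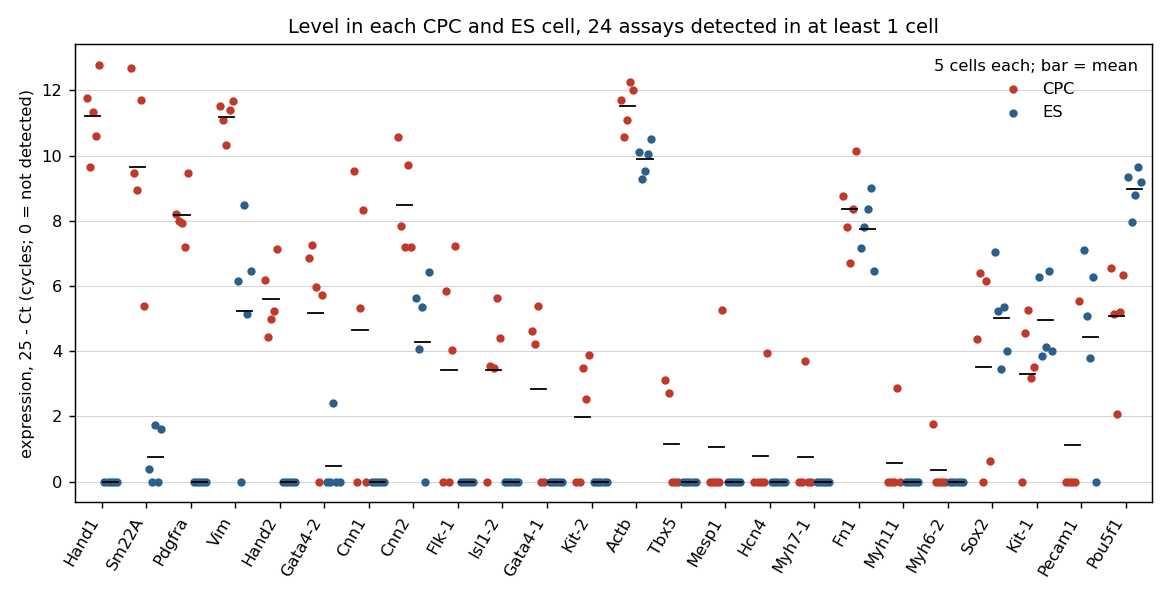
Level of the 24 assays with signal in at least 1 CPC or ES cell, in cycles (25 minus Ct, vertical axis), ordered by the difference of means. Each point is a cell (red CPC, blue ES, 5 each), 0 is not detected, and the short bars are means. Hand1, Pdgfra and Hand2 lie between 4.42 and 12.78 in CPC cells and at 0 in all ES cells, whereas the ES points of Pou5f1 lie above all CPC points.

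CPC cells had signal on more assays than ES cells. It was found on 15, 16, 16, 16 and 18 assays in the CPC cells and on 9, 7, 10, 7 and 8 in the ES cells, a mean of 16.2 ± 1.10 against 8.20 ± 1.30 (SD, n = 5 cells each). No CPC cell had as few as any ES cell, and the difference of means was 8.00 assays. These counts hold for the 42 assays measured, of which 2 were for pluripotency genes. There were 14 assays with signal in at least 1 CPC cell and in no ES cell, and 0 of the reverse kind. Of the 14, 5 had signal in 1 CPC cell only, namely Hcn4, Myh6-2, Myh7-1, Myh11 and Mesp1. Another 10 assays were detected in both types, and 3 of these 10, Actb, Fn1 and Pou5f1, in all 10 cells. With 5 cells, 0 of 5 allows a share of detecting cells of up to 52.2%, and 5 of 5 a share down to 47.8% (exact Clopper-Pearson 95% intervals, counting error only).

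Actb, the cytoskeletal actin used as a housekeeping assay, also differed between the types. It stood at 11.70, 10.58, 11.08, 12.25 and 12.02 in CPC cells and at 10.11, 9.29, 9.54, 10.05 and 10.495 in ES cells. The ranges did not overlap, and the mean was 1.63 cycles higher in CPC cells (11.53 ± 0.69 against 9.90 ± 0.48). The median level of a cell's detected assays was 6.69 ± 0.98 in CPC cells and 5.98 ± 0.95 in ES cells. Deposited values are not relative to Actb, and differences are also given below after centring each cell on Actb or on its median detected assay. Centring moves detected values only, since undetected ones take 1 fixed floor, so it says little about the assays at 0 in all ES cells. Centring on Actb moved the median difference of the detected assays by -0.31 cycles, centring on the median assay by -0.07, and either left 13 assays higher in CPC cells. The assays lower in CPC cells then numbered 5 and 4, and those with every CPC cell above every ES cell numbered 5 under either, without Actb and Cnn2 on Actb and without Actb and Vim on the median assay.

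The ES and CPC names were set beside their markers. These were chosen with earlier results of these data known, so this is no independent check of the names. Pou5f1, the POU-domain factor required for pluripotency, read 9.34, 7.96, 8.78, 9.66 and 9.19 in ES cells 1 to 5 and 6.56, 5.12, 2.09, 5.20 and 6.34 in CPC cells 1 to 5. It was thus detected in all 10 cells, with a gap between the lowest ES and the highest CPC cell. The means were 8.99 ± 0.65 and 5.06 ± 1.79, a difference of -3.92 cycles (CPC minus ES, as throughout), or -5.55 after centring on Actb and -4.63 after centring on the median assay.

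Sox2, the SRY-box partner of Pou5f1, overlapped between the types. Its values were 7.04, 5.24, 3.44, 5.35 and 4.02 in ES cells and 4.36, 6.38, 0, 6.17 and 0.64 in CPC cells. CPC-2 and CPC-4 were higher than 4 of the 5 ES cells, while CPC-3 had no signal and CPC-5 next to none. The means were 5.02 ± 1.39 and 3.51 ± 3.02, a difference of -1.50 cycles. That call rested on single cells: the difference was -0.63 without CPC-3, -0.79 without CPC-5 and -0.9998 without ES-1, each short of 1 cycle. It was -0.83 with a detection limit at Ct 23, -0.87 between medians and -0.63 over detecting cells only, but -3.19 and -2.40 after centring on Actb and on the median assay.

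Both pluripotency assays (2 of 2, against 4 of 42 over all assays) thus had a lower mean in CPC cells, though the Sox2 call rested on single cells. The median difference of the 2 was -2.71 cycles. Their summed level ran from 2.09 to 11.51 in CPC cells and from 12.22 to 16.37 in ES cells. All 5 CPC cells had Pou5f1 signal together with Hand1, and 4 of them Sox2 together with Hand1. The other reference types also gave Pou5f1 signal in 5 of 5 cells each, with means of 5.33 in CM, 7.14 in SMC, 5.63 in FB and 5.28 in EDC cells, so the CPC mean was no higher than theirs.

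The early mesoderm list was higher in CPC cells on 3 of 3 assays, against 15 of 42 (35.7%) over all assays. Its median difference was 3.42 cycles, and none of the 3 had signal in an ES cell. Pdgfra, the platelet-derived growth factor receptor alpha found on cardiogenic mesoderm, read 8.22, 7.99, 7.94, 7.20 and 9.47 in CPC cells and 0 in all ES cells. All CPC cells had it, at a mean of 8.16 ± 0.83. The difference was at least 8.16 cycles, a lower limit because the ES level can only be placed below the limit of detection.

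Flk-1, the VEGF receptor Kdr that marks vascular and cardiac mesoderm, divided the CPC cells. It read 0, 5.84, 0, 4.04 and 7.21 in CPC cells and 0 in all ES cells, for a CPC mean of 3.42 ± 3.32. CPC-1 and CPC-3 thus lacked it while carrying Pdgfra, and 3 of 5 CPC cells carried both receptors. With a detection limit at Ct 23 the CPC mean exceeded the ES mean by 2.22 cycles. Mesp1, the transient factor of the earliest cardiac mesoderm, was detected in CPC-5 alone, at 5.27. Its difference of 1.05 cycles rested on that cell and was 0 without it, and it was also under 1 cycle with a detection limit at Ct 23 (0.65) and after centring on Actb (0.93).

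Among cardiac transcription factors, 6 of 11 assays were higher in CPC cells, against 15 of 42 (35.7%) over all assays. None was lower, and 5 gave no signal in any of the 10 cells. The 6 include both assays of Gata4, and Tbx5, whose call rested on single cells. The median difference of the list was 1.16 cycles, against 0 over all assays. Hand1, a basic helix-loop-helix factor of early cardiac and extraembryonic mesoderm, showed the largest difference of the 42 assays. It read 11.76, 9.64, 11.33, 10.59 and 12.78 in CPC cells and 0 in the 5 ES cells, a mean of 11.22 ± 1.19 and a difference of at least 11.22 cycles. Its relative Hand2, which is needed for the growth of the right ventricle, read 6.18, 4.42, 5.0, 5.24 and 7.13 in CPC cells and 0 in the ES cells. The CPC mean was 5.60 ± 1.07 and the difference at least 5.60 cycles, or 3.60 with a detection limit at Ct 23. CPC-5 had the highest value and CPC-2 the lowest for both Hand genes.

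The zinc finger factor Gata4, which regulates many early cardiac genes, was read by 2 assays that gave the same direction. Gata4-2 stood at 6.86, 7.27, 5.98, 0 and 5.72 in CPC cells and at 0, 0, 2.42, 0 and 0 in ES cells, so that CPC-4 had none and ES-3 had a little. The difference was 4.68 cycles (CPC mean 5.16 ± 2.95, ES mean 0.48 ± 1.08). Gata4-1 read 4.61, 4.21, 5.40, 0 and 0 in CPC cells and 0 in all ES cells, a difference of 2.84 cycles, or 1.64 with a detection limit at Ct 23. CPC-4 was without Gata4 by either assay.

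Isl1, the LIM-homeodomain factor of second heart field progenitors, was likewise read by 2 assays, but these parted. Isl1-2 read 0, 3.54, 3.47, 5.64 and 4.39 in CPC cells and 0 in all ES cells. That is 4 of 5 CPC cells, averaging 3.41 ± 2.10 over all 5, and the difference of 3.41 cycles became 1.81 with a detection limit at Ct 23. Isl1-1 gave no signal in any of the 30 reference cells, although the positive control read 10.39 on it. Over all cells of the series, with each repeated cell counted once, Isl1-1 was detected in 3 and Isl1-2 in 21, and each of the 3 also had Isl1-2. The Isl1 statement here therefore rests on 1 of its 2 assays.

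Tbx5, a T-box factor of the first heart field, read 3.12 and 2.70 in CPC-1 and CPC-2 and 0 in the other CPC cells and in all ES cells. Its difference of 1.16 cycles fell under the 1-cycle limit without CPC-1 (0.68) or without CPC-2 (0.78). The same happened after centring on the median assay (0.82), with a detection limit at Ct 23 (0.36) and between medians (0). Both assays of Nkx2-5 (written Nkx2.5 in the table) and both of Mef2c (Mef2C) had no signal in any of the 5 CPC cells. Both genes are widely used as cardiac progenitor markers. The assays themselves had signal in other reference cells, Nkx2.5-1 in 6 and Mef2C-1 in 10 of the 20 cells of the other types. Of the markers read for the CPC name, chosen with earlier results known, Hand1, Pdgfra and Isl1-2 were present and Nkx2-5 and Mef2c were not. Hand2 separates CPC from ES cells but not from the other reference types, where it had signal in 19 of 20 cells. Neither Gata4 assay separated all CPC from all ES cells. In the other types Gata4-2 had signal in 12 of 20 cells and Gata4-1 in 2. Tbx1, a second heart field factor, gave no signal in any of the 30 reference cells.

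**Figure D2:**
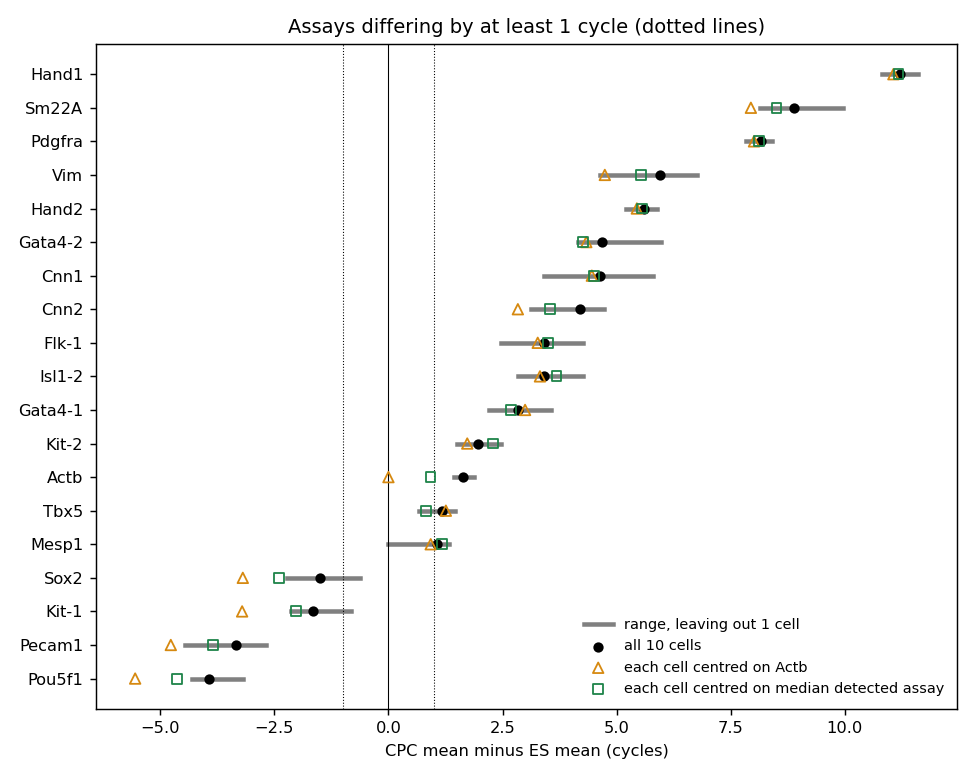
Difference of the CPC mean from the ES mean, in cycles (horizontal axis), for the 19 assays that differ by at least 1 cycle (dotted lines). Black points use all 10 cells, grey bars span the values with 1 cell left out, and open symbols are after centring each cell on Actb (triangles) or on its median detected assay (squares). The bars of Tbx5, Mesp1, Kit-1 and Sox2 cross a dotted line, Actb falls to 0 and 0.92 on centring, and Mesp1 (0.93 on Actb) and Tbx5 (0.82 on the median assay) each fall inside the line once.

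Genes of the contractile apparatus were near absent from both types. Of 11 sarcomere and calcium-handling assays, none differed by 1 cycle and 9 had no signal in the 10 cells, among them both assays of cardiac troponin T (Tnnt2), both of cardiac troponin I (Tnni3), alpha-actinin (Actn2), the ventricular light chain Myl2 and the calcium-pump regulator Sln. The 2 exceptions were single CPC cells: Myh7-1, the beta myosin heavy chain, at 3.70 in CPC-3, and Myh6-2, the alpha chain, at 1.76 in CPC-1. In each case the other assay of the gene had no signal in that cell. The summed level of the list ran from 0 to 3.70 in CPC cells and was 0 in every ES cell. In reference CM cells the mean was 11.24 for Tnnt2-1 and 8.92 for Actn2. Hcn4, the pacemaker channel, was detected in CPC-5 alone, at 3.95, a difference of 0.79 cycles.

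Of the 18 assays without signal in any CPC or ES cell, 16 had signal in other reference cells. On all 18 the positive control read between 8.45 and 16.27.

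Smooth muscle genes and calponins set the CPC cells apart from ES cells more than the cardiac contractile genes did. Of this list 3 of 4 assays were higher, against 15 of 42 (35.7%) over all assays, with a median difference of 4.42 cycles. Sm22A (Tagln, transgelin), an actin-binding protein of smooth muscle that is also expressed transiently in the early heart, read 12.67, 9.48, 8.95, 11.70 and 5.39 in CPC cells and 0.39, 0, 1.73, 0 and 1.61 in ES cells. Every CPC cell was above every ES cell, and the means differed by 8.89 cycles (9.64 ± 2.83 against 0.75 ± 0.86). Cnn1, the calponin of smooth muscle, read 9.53, 0, 5.34, 8.33 and 0 in CPC cells and 0 in all ES cells, a mean of 4.64 ± 4.5. It was absent from CPC-2 and CPC-5 and highest in the cells that were also highest for Sm22A, CPC-1 and CPC-4.

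Cnn2, the calponin of non-muscle and smooth muscle cells, was not limited to CPC cells. It read 10.57, 7.83, 7.19, 9.70 and 7.19 in CPC cells and 5.62, 4.07, 5.37, 0 and 6.42 in ES cells, so that the lowest CPC cell lay just above the highest ES cell. The means differed by 4.20 cycles and the medians by 2.46, and after centring on Actb by 2.84, where the types overlapped (lowest CPC cell -4.82, highest ES cell -4.07). Myh11, the smooth muscle myosin heavy chain and the most specific gene of this list, was at 0 in 4 CPC cells and all ES cells and at 2.88 in CPC-4, for a difference of 0.58 cycles. The summed level of the list ran from 12.58 to 32.76 in CPC cells and from 0 to 8.03 in ES cells. The reference SMC cells had a mean of 11.91 for Sm22A and 10.08 for Cnn1, and their Myh11 mean was 11.75. Of the 20 reference cells other than CPC and ES, Sm22A had signal in 18, Cnn2 in 16, Myh11 in 6 and Cnn1 in 5. Sm22A and Cnn2 thus set CPC cells apart from ES cells but not from most other reference cells.

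Vim, the intermediate filament of mesenchymal cells, was high and even in CPC cells and uneven in ES cells. It read 11.52, 11.08, 10.33, 11.39 and 11.67 in CPC cells and 6.15, 0, 8.47, 5.15 and 6.44 in ES cells. The means were 11.20 ± 0.53 and 5.24 ± 3.17, a difference of 5.95 cycles with no overlap. After centring on the median assay they overlapped, with a lowest CPC cell at 3.30 and a highest ES cell at 3.73. In the other reference types Vim had signal in 19 of 20 cells. Fn1, fibronectin, an extracellular matrix protein, overlapped between the types. It read 8.75, 7.82, 6.71, 8.35 and 10.15 in CPC cells and 7.17, 7.80, 8.36, 9.0 and 6.46 in ES cells, a difference of 0.60 cycles. Its sign turned on centring, to -1.03 on Actb and to -0.11 on the median assay, and without CPC-3 it was 1.01.

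Of 3 endothelial assays, 1 was lower in CPC cells, against 4 of 42 (9.52%) over all assays, and 2 had no signal. Pecam1, an adhesion molecule of endothelial cells that is also found on ES cells, read 7.09, 5.09, 3.78, 6.27 and 0 in ES cells and 0, 0, 0, 0 and 5.53 in CPC cells. It was present in 4 of 5 ES cells and 1 of 5 CPC cells, for a difference of -3.34 cycles between means and -5.09 between medians, or -2.14 with a detection limit at Ct 23. Cdh5 and Vwf, the junctional cadherin and the clotting factor that define endothelium, were at 0 in all 10 cells. The reference EDC cells had Pecam1 at a mean of 6.30 and, unlike the 10 cells here, Cdh5 in 5 of 5 cells.

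The receptor tyrosine kinase Kit, found on stem and progenitor cells of several lineages, gave opposite directions by its 2 assays. Kit-1 read 6.27, 3.85, 4.13, 6.46 and 4.0 in ES cells and 0, 4.56, 5.25, 3.17 and 3.52 in CPC cells, a difference of -1.64 cycles. The ranges overlapped, and the difference was -0.82 without CPC-1, the only cell of the 10 without signal, -0.61 between medians and -0.82 over detecting cells only. On centring it was -3.21 on Actb and -2.04 on the median assay. Kit-2 read 0, 0, 3.47, 2.52 and 3.87 in CPC cells and 0 in all ES cells, a difference of 1.97 cycles, or 0.77 with a detection limit at Ct 23. All 3 CPC cells with Kit-2 also had Kit-1, whereas the 5 ES cells had Kit-1 alone. Over all cells of the series, each repeated cell counted once, Kit-1 was detected in 54 and Kit-2 in 57, with 18 cells in common. No direction for Kit as a gene can be taken from these values. Vcam1, a cell adhesion molecule, had no signal in the 10 cells.

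**Figure D3:**
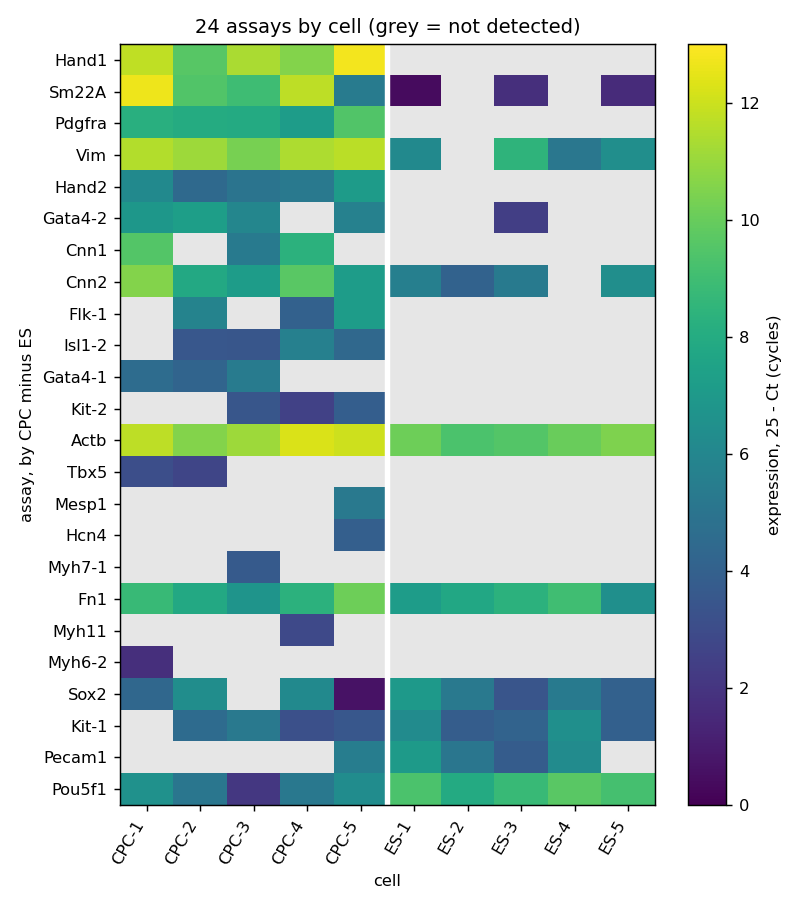
The same 24 assays by cell, coloured by level in cycles (25 minus Ct) with grey for not detected, CPC cells on the left and ES cells on the right of the white line. The 5 ES columns have 7 to 10 coloured rows each, against 15 to 18 in the CPC columns, and CPC-5 alone carries Mesp1, Hcn4 and, of the CPC cells, Pecam1.

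Pairs of CPC cells were mostly less alike than pairs of ES cells, though the ranges overlapped. Pearson's r between cells over 41 assays (all but Actb) ran from 0.699 to 0.874 within CPC (median 0.828, 10 pairs), from 0.797 to 0.942 within ES (median 0.889, 10 pairs) and from 0.146 to 0.604 between the types (median 0.411, 25 pairs). These values describe pairs of cells that share a table and many undetected assays. Over the 23 of these assays with signal in at least 1 of the 10 cells, r ran from 0.534 to 0.811 within CPC, from 0.767 to 0.933 within ES and from -0.08 to 0.493 between. Of the 23, 14 had no signal in any ES cell, so shared undetected assays still enter r within ES. No pair of cells of different types was thus as alike as the least alike pair of CPC cells or of ES cells.

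CPC-5 was the least like its own type, with a mean r of 0.758 to the other CPC cells where the others had 0.819 to 0.834. It had the highest level of Hand1 (12.78), Pdgfra (9.47), Hand2 (7.13), Flk-1 (7.21), Kit-2 (3.87) and Fn1 (10.15) of the 5. It also had the lowest Sm22A, at 5.39 where the other 4 ranged from 8.95 to 12.67, and no Cnn1 or Gata4-1. At the other end, CPC-1 had the highest Sm22A (12.67), Cnn1 (9.53) and Cnn2 (10.57) and no Isl1-2, Kit-1, Kit-2 or Flk-1. Isl1-2 and Flk-1 were found together in 3 of 5 CPC cells and Isl1-2 and Kit-1 in 4.

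Set against the other 4 reference types, CPC cells had the highest mean by at least 1 cycle on 7 assays and ES cells on 3. For CPC cells these were Hand1 (4.22 cycles above CM), Pdgfra (5.82 above SMC), Isl1-2 (2.91 above CM), Gata4-1 (1.86 above FB), Kit-2 (1.28 above SMC), Actb (1.25 above SMC) and Mesp1. Mesp1 had signal in CPC-5 alone and in no cell of another type. The second Gata4 assay, Gata4-2, fell short of the 1-cycle margin, with a mean of 5.16 in CPC and 4.31 in CM cells. Every CPC cell was above each of the 25 other reference cells for Hand1 (lowest 9.64, highest other 7.51) and for Pdgfra (lowest 7.20, highest other 6.35). For Isl1-2 the single other cell with signal, a CM cell, read 2.48, below the 4 CPC cells that had it.

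Among the 6 types, the ES mean was the top one for Pou5f1 (1.84 cycles above SMC), Kit-1 (1.64 above CPC) and Sox2 (1.50 above CPC). Every ES cell was above each of the 25 other reference cells for Pou5f1, with a lowest value of 7.96 against a highest other of 7.61. They also had the lowest mean for Hand2, which was at 0 in the 5 ES cells and had signal in 24 of the 25 others. The mean number of detected assays was lowest in ES cells, at 8.20, and ranged from 10.4 in FB to 22 in CM cells among the other types, with CPC at 16.2.

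On part of the assays, levels close to those of the CPC cells recurred in the table of cells named D5 to D8. The sample titles of that table name embryo cells in place of the cultures that its name implies. The 6 cells named D5 had Hand1 at 10.88 ± 2.23, Pdgfra at 7.02 ± 3.49 with 5 of 6 cells detecting it, Sm22A at 10.07 ± 0.96 and Vim at 11.47 ± 0.95. The CPC means of the same assays were 11.22, 8.16, 9.64 and 11.20, with Pdgfra 1.14 cycles higher in CPC cells. Of the 42 assays, 9 had a mean at least 1 cycle higher in CPC than in D5 cells and 9 a mean at least 1 cycle lower. The other 24 were within 1 cycle, some of them at 0 in both sets. Hand2 differed by 2.32 cycles and Flk-1 by -2.47 (CPC minus D5). CPC-1 to CPC-4 had their highest r with the mean of the other CPC cells (0.887 to 0.907), followed by the D5 mean (0.831 to 0.880), while CPC-5 was closer to D5 (0.843) than to the other CPC cells (0.802).

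The share of detecting cells was at least 50 percentage points apart between CPC and D5 cells for Isl1-2, Tnnt2-2 and Sox2. Isl1-2 had signal in 0 of 6 D5 cells against 4 of 5 CPC cells, and in 5 of 6 cells named D6, at 2.95 ± 1.73. Sox2 was detected in 1 of 6 D5 cells, at 3.14, against 4 of 5 CPC cells. Tnnt2-2, for cardiac troponin T, had signal in 4 of 6 D5 cells, at a mean of 3.04, and in 0 of 5 CPC cells. Of the other troponin assays, Tnnt2-1 had signal in 1 of 6 D5 cells and Tnni3-1 and Tnni3-2 in 2 each. Pou5f1 overlapped, with a D5 mean of 6.75 ± 1.27 against 5.06 ± 1.79, a difference of -1.69 cycles (CPC minus D5). Flk-1 and Pdgfra were detected together in 5 of 6 D5 cells and 3 of 5 CPC cells. With 5 and 6 cells from different tables, counting error alone spans much of these differences in share, and differences between tables were not tested.

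Cells named E7.5, from a table whose titles name ES-derived cells, were less like the CPC cells. Hand1 was detected in 3 of their 6 cells, Pdgfra in 1 and Isl1-2 in 0, while Flk-1 averaged 8.45 ± 4.18 and Kit-1 4.89 ± 2.60. Their Flk-1 mean was above that of the CPC cells and their Kit-1 mean close to that of the ES cells. Each ES cell had its highest r with the mean of the other ES cells (0.893 to 0.968), then with the FB mean (0.535 to 0.842) and next with the E7.5 mean.

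**Figure D4:**
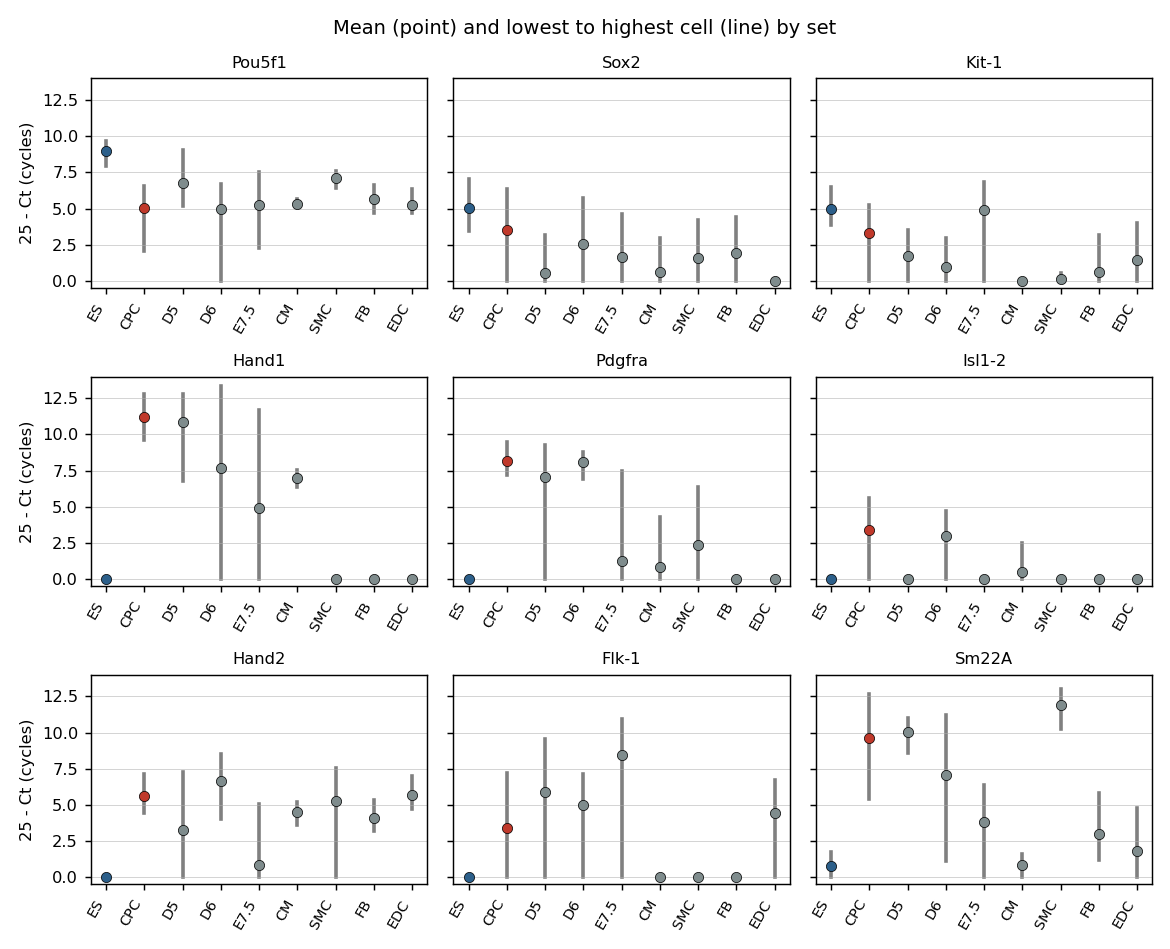
Level of 9 assays in the ES and CPC cells and in 7 other named sets of cells, in cycles (25 minus Ct, vertical axis), with points for the mean and lines from the lowest to the highest cell (5 cells in each reference type, 6 in D5, D6 and E7.5). ES cells are highest for Pou5f1 and at 0 for Hand1, Hand2, Pdgfra, Flk-1 and Isl1-2. The CPC mean of Hand1 lies beside that of D5, whereas the CPC mean of Pdgfra is 1.14 cycles above the D5 mean.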

How the data were processed

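The authors deposited Ct values (no unit conversion) for 42 assays in 7 tables, and the values show 25 for an assay without signal, other cells reading below it. How Ct was thresholded and cells filtered is not given in the sources used here. Cells were taken by the names in the reference table's second line. The members and marker lists were chosen with earlier results of these data known. Expression was 25 minus Ct, and undetected was 0. An assay was called where CPC and ES means differed by at least 1 cycle. Named assays are those called, those whose share of detecting cells differs by at least 50 percentage points, the second assay of a named gene, listed assays without signal, and those where CPC or ES is the extreme of the 6 types. No test or p-value was computed. Precision is limited by 5 cells per type. Alternatives were subtracting a cell's Actb level or its median detected level (undetected ones at the lowest centred value), a limit of Ct 23, medians, detecting cells only (at least 3 in each type), a 2-cycle threshold, and leaving out each cell. Of the assay names, 36 matched a RefSeq symbol as written and 6 by another name. No probe sequence was used here. Python 3.11.15 with pandas 2.3.3, numpy 2.4.6, scipy 1.17.1 and matplotlib 3.10.9 was used. The comparison was tested on simulated data with base levels drawn above the detection limit. Calls that involve undetected cells were therefore not tested by it.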

Additional observations from a re-analysis of the deposited data

Results flagged for a closer look

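In 8 of the 36 groups of 5 values examined, 1 cell stood apart from the other 4 by more than Dixon's critical value of 0.71 (gap over range). Chance flags about 1 in 20 groups of independent values, and a group with a single detecting cell is flagged by construction. Among CPC cells, Gata4-2 was not detected (0) in CPC-4, with a gap over range of 0.786, while the others read 5.72 to 7.27. Single CPC cells with signal were CPC-5 for Hcn4 (3.95), Pecam1 (5.53) and Mesp1 (5.27), CPC-1 for Myh6-2 (1.76), CPC-3 for Myh7-1 (3.70) and CPC-4 for Myh11 (2.88). Among ES cells, ES-3 was the only cell with Gata4-2 signal, at 2.42.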

How the results depend on the processing

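With medians over cells in place of means, 2 assays were lower in CPC cells in place of 4. With means over detecting cells only, 4 assays were higher and 1 was lower, since only assays detected in at least 3 cells of each type enter. With a 2-cycle threshold, 2 were lower. Under the other alternatives the counts stayed within 1.5 times of 15 higher, 4 lower, 7 with every CPC cell above and 1 with every CPC cell below. With 1 cell left out they ran from 14 to 16, from 3 to 4, from 7 to 8 and from 1 to 1, and the difference in assays detected per cell from 7.55 to 8.45. It was 8.20 with a limit at Ct 23. No called difference turned its sign. Leaving out 1 cell ended the calls of Tbx5, Mesp1, Kit-1 and Sox2. Under the settings other than leaving out a cell, 83 single-assay differences moved by less than the spread between cells and 9 by more. No paired analysis was possible because no test was made and the numbers in the cell names are not said to tie any CPC cell to an ES cell. A limit at Ct 23 lowers every difference against an undetected group by construction. A weak and an absent transcript read alike at the detection limit.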
